A study of Mus musculus with 31 samples.

Results

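The kidney sets how much calcium and phosphate the body keeps, and 10 genes that carry out or control this task are described here in the kidneys of mice with polycystic kidney disease. Kl, Fgfr1, Pth1r and Vdr code for receptors or co-receptors of the calcium and phosphate hormones, and Casr codes for the calcium-sensing receptor. Trpv5, Trpv6, S100g, Calb1 and Atp2b1 code for the channels, binding proteins and pump that move calcium across the distal tubule. The genes were chosen by name for their known place in this axis, not ranked by a measured value, but with earlier results of these data known. All 10 were among the 23509 genes counted, and all 10 passed the filter on low counts that left 15185 genes for testing.

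RNA-seq counts of whole kidney from 31 mice aged 30 weeks were analysed. In the PBS group, 12 Pcy/CD1 mice received subcutaneous PBS, and in the RGLS4326 group 14 Pcy/CD1 mice received subcutaneous RGLS4326 at 25 mg kg−1 monthly, in both groups from 5 weeks of age for 25 weeks. The 5 wild-type mice were untreated male CD1 mice of the same age, and the study describes the dosed Pcy/CD1 mice as male too. All 26 Pcy/CD1 mice carried pcy, a recessive mutation that slowly fills the kidney with cysts, on the CD1 background, so PBS-treated and wild-type mice differed in both genotype and injections. The labels of the PBS-treated mice read weekly dosing where the protocol reads monthly dosing for both groups. RGLS4326 is a short, chemically modified oligonucleotide that binds the seed of the microRNA miR-17. Other groups of the study were not analysed here.

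Counts on genes totalled 14892524 to 27459962 per mouse, and levels are given as CPM, counts relative to library size after scaling by edgeR's TMM factors. A gene was called when edgeR's quasi-likelihood test gave a Benjamini-Hochberg adjusted p under 0.05 over the 15185 genes. Some mice stood apart. Wild-type mice 3 and 4 resembled each other far more than any other wild-type pair (chi-square per gene of 2.84, against 17.1 to 24.5 in the 9 other pairs). They differed by more than sampling noise, which does not show that they are independent animals. They were counted as 2 mice, as labelled. Whether the wild-type SD, SE and p values rest on 5 independent animals was not tested. RGLS4326-treated mouse 9 lay near the wild-type mice in many genes, with Lcn2, a tubular injury transcript, at 2.76 CPM against 126 to 607 CPM in the 13 other treated mice. Where leaving out these 3 mice changed a call described here, the value without them is given beside it. Library numbers restart along the samples and so form 3 series of unstated meaning, with 4 mice on PBS in each, 4, 5 and 5 mice on RGLS4326, and 2, 2 and 1 wild-type mice. Scaling mattered as well. With plain library totals in place of TMM factors, the median log2 fold change of all genes moved from 0.01 to 0.38 for PBS against wild type, from −0.00 to −0.12 for RGLS4326 against PBS and from 0.00 to 0.26 for RGLS4326 against wild type. The share of calls that were higher moved from 50.7% to 80.0%, from 57.9% to 11.8% and from 50.1% to 80.3% in these comparisons.

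As background, fibroblast growth factor 23 (FGF23) from bone acts on the kidney through a receptor made of Fgfr1 and its co-receptor Klotho, the product of Kl, and makes the proximal tubule excrete phosphate and stop making active vitamin D. Parathyroid hormone, through Pth1r, also promotes phosphate loss but favours vitamin D activation and calcium retention. In the distal convoluted and connecting tubule calcium enters the cell through Trpv5 and Trpv6, is ferried by the calbindins encoded by S100g and Calb1, and leaves through the pump encoded by Atp2b1 and the exchanger encoded by Slc8a1. The vitamin D receptor Vdr drives several of these genes, and Casr, the calcium-sensing receptor, curbs calcium uptake in the thick ascending limb. Whole kidney was sequenced, so fewer cells of a type and less RNA per cell cannot be told apart in any result here.

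Since RGLS4326 targets miR-17, the mature miR-17-5p sequence is shown with its seed, bases 2 to 8, in capitals, as RefSeq places it on chr14:115043684-115043706, plus strand (GRCm38.p6).
miR-17-5p: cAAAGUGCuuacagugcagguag
A match to this seed, GCACTTT on the transcript strand, was found in the longest annotated 3′UTR of 2 of the 10 genes, Calb1 and Trpv6, against 2468 of 20990 genes overall (11.8%, GENCODE annotation of GRCm38). Both matches are shown in capitals within 28 bases of the 3′UTR. The Calb1 match is on chr4:15906081-15906087, plus strand, in exon 11 of 11, and the Trpv6 match, which is followed by A, is on chr6:41620834-41620840, minus strand, in exon 15 of 15.
Calb1 3′UTR: aggttggatttaaGCACTTTttttcaat
Trpv6 3′UTR: cctgcacaccagaGCACTTTaaagacag
The match is a description of these letters, and binding was not measured.

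In PBS-treated Pcy/CD1 kidneys, 8 of the 10 genes differed from wild type. The channels Trpv5 and Trpv6 were 2.08-fold and 7.99-fold higher, whereas Kl, Calb1, Casr, Vdr, Pth1r and Atp2b1 were 1.29-fold to 2.19-fold lower. Of all genes, 37.7% were called higher and 36.6% lower in this comparison, so being called does not set these genes apart from the transcriptome. Their median log2 fold change was −0.52, against 0.01 for all genes. With library totals as scaling 3 of the 10 genes were called higher and 5 lower, against 62.6% and 15.6% of all genes. With RGLS4326, 2 of the 10 genes, Kl and Calb1, were called higher than with PBS and 0 lower, where 9.15% of all genes were called higher and 6.66% lower. Without wild-type mice 3 and 4 only 1 of the 10 was called, where 11.4% of all genes were in either direction, and without treated mouse 9 as well 0 were, where 5.91% were. With library totals 0 were called higher and 2 lower, where 3.63% and 27.2% of all genes were. RGLS4326-treated mice still differed from wild type in the same 8 genes and directions, 2 higher and 6 lower, against 32.5% and 32.4% of all genes, and with library totals in 4 higher and 5 lower, against 55.6% and 13.7%. When wild-type mice 3 and 4 were left out, the treated mice differed from wild type in 3 higher and 5 lower genes, with S100g and Fgfr1 called and Calb1 and Atp2b1 not, where 54.4% of all genes were called in either direction. The comparisons share mice, so their calls are not independent.

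**Figure D1:**
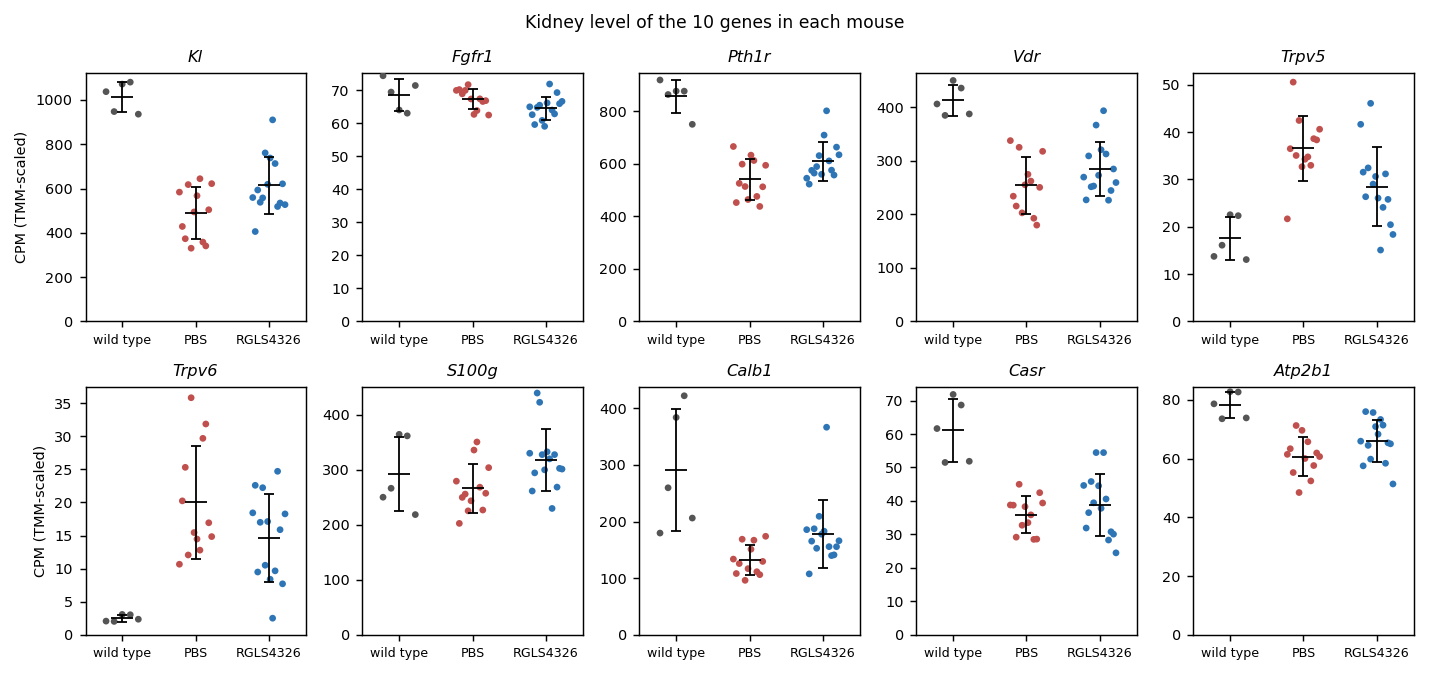
TMM-scaled CPM (y axis, from 0) of the 10 genes in each of 5 wild-type, 12 PBS-treated and 14 RGLS4326-treated mice; each point is 1 mouse and bars are the mean ± SD. Kl fell from 1014 CPM in wild type to 489 CPM with PBS and read 614 CPM with RGLS4326, while Trpv6 rose from 2.51 to 20.01 CPM with PBS.

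Kl codes for Klotho, the co-receptor without which FGF23 hardly acts, and lies on chr5:150952607-150993817, plus strand (GRCm38). Wild-type mice 1 to 5 read 1037, 947, 1071, 1080 and 936 CPM. PBS-treated mice ranged from 331 to 644 CPM with a median of 499 CPM, and RGLS4326-treated mice from 406 to 910 CPM with a median of 576 CPM. All 12 PBS-treated and all 14 RGLS4326-treated mice lay below the lowest wild-type mouse. Means were 1014 ± 68.5 CPM (SD, n = 5) for wild type, 489 ± 119 CPM (SD, n = 12) for PBS and 614 ± 128 CPM (SD, n = 14) for RGLS4326. Kl fell with a log2 fold change of −1.05 (SE 0.15) in PBS-treated mice (edgeR, adjusted p = 3.77e-07), and the value lay between −1.06 and −0.99 within the 3 library series. With RGLS4326 it was higher by a log2 fold change of 0.33 (SE 0.12; edgeR, adjusted p = 0.0489), with 4 of 14 treated mice above every PBS-treated mouse. Against wild type the treated mice remained lower, at −0.72 (SE 0.15; edgeR, adjusted p = 0.000108).

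The higher Kl with RGLS4326 stood close to the threshold. Leaving out single mice gave adjusted p values from 0.0208 to 0.0994 by edgeR and log2 fold changes from 0.27 to 0.37. The call was lost in 19 of these 31 fits, with adjusted p from 0.0533 to 0.0994: without any of PBS-treated mice 2, 3, 5, 6, 9, 10 and 11, of RGLS4326-treated mice 3, 6, 7, 8, 9, 10 and 13, or of wild-type mice 1 to 5. Without wild-type mice 3 and 4 and treated mouse 9 the difference was 0.27 (edgeR, adjusted p = 0.109). It was 0.07, 0.49 and 0.35 within library series 1, 2 and 3, none of which passed (edgeR, adjusted p = 1, 0.237 and 0.3). DESeq2 gave 0.33 (adjusted p = 0.0314), and library totals gave 0.22 (edgeR, adjusted p = 0.0592) where the median of all genes was −0.12.

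Fgfr1, the receptor kinase that Klotho turns into an FGF23 receptor (chr8:25513654-25575718, plus strand), stayed in a narrow range. Wild-type mice 1 to 5 read 74.4, 69.5, 64.1, 63.1 and 71.5 CPM, PBS-treated mice 62.5 to 71.7 CPM with a median of 67.4 CPM, and RGLS4326-treated mice 59.1 to 71.9 CPM with a median of 64.9 CPM. The groups overlapped throughout. The log2 fold change was −0.02 (SE 0.04; edgeR, adjusted p = 0.625) for PBS against wild type and −0.06 (SE 0.03; edgeR, adjusted p = 0.174) for RGLS4326 against PBS; the first of these became 0.35 (edgeR, adjusted p = 5.57e-06) with library totals, where the median of all genes was 0.38, and the second −0.17 (edgeR, adjusted p = 0.00969), where it was −0.12. Against wild type the treated mice gave −0.08 (SE 0.04; edgeR, adjusted p = 0.0843), which was called without RGLS4326-treated mouse 9 or wild-type mouse 4 (adjusted p from 0.0367 to 0.0454) and without wild-type mice 3 and 4 (−0.13; edgeR, adjusted p = 0.0239). Fgf23 itself was at 0 counts in all 5 wild-type mice and reached at most 2 counts in any Pcy/CD1 mouse. Per kilobase of exon the mean CPM was 198 for Kl and 13.1 for Fgfr1 in wild type, 95.5 and 12.9 with PBS and 120 and 12.4 with RGLS4326.

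Pth1r, the parathyroid hormone receptor (chr9:110722085-110747145, minus strand), read 919, 864, 877, 876 and 750 CPM in wild-type mice 1 to 5. The 12 mice given PBS lay between 438 and 666 CPM, with a median of 519 CPM, all below the lowest wild-type mouse, and the treated mice between 523 and 802 CPM with a median of 583 CPM. A single treated mouse, mouse 9, reached the wild-type range. Pth1r fell with a log2 fold change of −0.67 (SE 0.09) in PBS-treated mice (edgeR, adjusted p = 2.36e-07). RGLS4326 against PBS gave 0.17 (SE 0.07), which was not called (edgeR, adjusted p = 0.0741) but was called without PBS-treated mouse 1 or 7 or treated mouse 2 (adjusted p from 0.0371 to 0.0471). Pth, which codes for the hormone, reached at most 1 count in any mouse, and the 3 parathyroid markers Pth, Gcm2 and Chga never exceeded 3 counts.

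Vdr, the nuclear receptor of active vitamin D (chr15:97854425-97910630, minus strand), read 406, 385, 450.0, 436 and 388 CPM in wild-type mice 1 to 5. With PBS the range was 180 to 338 CPM, around a median of 253 CPM, again all below wild type. RGLS4326-treated mice ranged from 226 to 394 CPM with a median of 271 CPM, and only mouse 9 reached the wild-type range. Vdr fell with a log2 fold change of −0.70 (SE 0.13) with PBS (edgeR, adjusted p = 1.31e-05), and RGLS4326 against PBS gave 0.17 (SE 0.10; edgeR, adjusted p = 0.205).

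Casr, the calcium-sensing receptor (chr16:36493696-36562141, minus strand), was less abundant. Wild-type mice 1 to 5 read 61.6, 51.5, 71.8, 68.7 and 51.9 CPM, with mice 3 and 4 the highest. PBS-treated mice ranged from 28.5 to 45.0 CPM with a median of 37.1 CPM and did not overlap wild type, whereas 2 of 14 RGLS4326-treated mice did, in a range of 24.5 to 54.5 CPM with a median of 38.6 CPM. Casr fell with a log2 fold change of −0.77 (SE 0.14) with PBS (edgeR, adjusted p = 1.67e-05), and −0.59 without wild-type mice 3 and 4 (edgeR, adjusted p = 0.00336). RGLS4326 against PBS gave 0.11 (SE 0.11; edgeR, adjusted p = 0.449), which became −0.00 with library totals and −0.18 within library series 3.

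The entry channels moved against this pattern. Trpv6 lies on chr6:41620624-41636405 and Trpv5 on chr6:41652173-41680769, both on the minus strand and 15.8 kb apart. They are related genes, and reads of stretches they share could be lost or split in counting. Trpv5, the epithelial calcium channel of the distal convoluted and connecting tubule, read 13.7, 16.1, 22.5, 22.3 and 13.1 CPM in wild-type mice 1 to 5, with mice 3 and 4 the highest. The 12 mice given PBS lay between 21.7 and 50.5 CPM, with a median of 35.8 CPM, and 11 of 12 lay above every wild-type mouse. RGLS4326-treated mice ranged from 15.1 to 46.1 CPM with a median of 27.7 CPM, and 3 of 14, with mouse 9 the lowest, lay below every PBS-treated mouse. Trpv5 rose by a log2 fold change of 1.06 (SE 0.20) with PBS (edgeR, adjusted p = 2.19e-05), and by 1.38 without wild-type mice 3 and 4 (edgeR, adjusted p = 2.52e-05). The value for RGLS4326 against PBS was −0.36 (SE 0.14), just short of the threshold (edgeR, adjusted p = 0.0629). It was −0.31 without treated mouse 9 and wild-type mice 3 and 4 (edgeR, adjusted p = 0.0913), and it was called without PBS-treated mouse 1 or treated mouse 1, 2 or 5 (adjusted p from 0.0278 to 0.0494) and with library totals (−0.46; edgeR, adjusted p = 0.0259). Against wild type the treated mice were higher by 0.70 (SE 0.19; edgeR, adjusted p = 0.00223).

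Trpv6, the second epithelial calcium channel, showed the largest change of the 10 genes. It read 2.06, 2.02, 3.08, 3.03 and 2.35 CPM in wild-type mice 1 to 5, or 52 counts at most. With PBS the range was 10.7 to 35.8 CPM, around a median of 16.2 CPM, all above wild type. RGLS4326-treated mice ranged from 2.51 to 24.7 CPM with a median of 16.4 CPM, and mouse 9, at 2.51 CPM, was the 1 treated mouse within the wild-type range. Trpv6 rose by a log2 fold change of 2.998 (SE 0.41) with PBS (edgeR, adjusted p = 2.61e-07), and by 3.06, 2.70 and 3.33 within library series 1, 2 and 3. RGLS4326 against PBS gave −0.45 (SE 0.24; edgeR, adjusted p = 0.163). Markers of connecting tubule and collecting duct principal cells (Aqp2, Aqp3, Scnn1g and Hsd11b2) moved in the same comparisons: 4 of 4 were higher with PBS than in wild type, with a summed level of 1310 to 2810 CPM against 451 to 787 CPM, and 4 of 4 were lower with RGLS4326 than with PBS, at 742 to 1980 CPM. Their part in the Trpv5 and Trpv6 values was not tested.

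The calbindins, which buffer calcium on its way through the distal tubule cell, parted from each other. Calb1, the larger calbindin (chr4:15881264-15908064, plus strand), read 180, 260, 384, 422 and 206 CPM in wild-type mice 1 to 5. PBS-treated mice ranged from 96.2 to 174 CPM with a median of 128 CPM, all below wild type, and RGLS4326-treated mice from 108 to 367 CPM with a median of 166 CPM. The highest treated mouse was mouse 9, and the next read 209 CPM. Calb1 fell with a log2 fold change of −1.13 (SE 0.19) with PBS (edgeR, adjusted p = 5.23e-06). Without wild-type mice 3 and 4 this was −0.68 (edgeR, adjusted p = 0.00571). With RGLS4326, Calb1 was higher by 0.43 (SE 0.15; edgeR, adjusted p = 0.0475), with 6 of 14 treated mice above every PBS-treated mouse.

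That treatment call too depended on single mice. It was lost in 17 of 31 fits (edgeR, adjusted p from 0.0517 to 0.0918): without any of PBS-treated mice 2, 3, 5, 6, 9, 10 and 11, of RGLS4326-treated mice 1, 3, 4, 6, 7, 8, 9, 10 and 13, or of wild-type mouse 2. The log2 fold change was lowest, 0.31, without treated mouse 9, and was 0.30 (edgeR, adjusted p = 0.0622) without this mouse and wild-type mice 3 and 4. Within library series 1, 2 and 3 it was 0.27, 0.72 and 0.22, none of which passed (edgeR, adjusted p = 1, 0.237 and 0.371). Treated mice were lower than wild type at −0.70 (SE 0.19; edgeR, adjusted p = 0.00181), which became −0.25 (edgeR, adjusted p = 0.31) without wild-type mice 3 and 4.

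S100g, the small calbindin (chrX:162961992-162964599, minus strand), read 250, 267, 365, 362 and 219 CPM in wild-type mice 1 to 5. The 12 mice given PBS lay between 203 and 351 CPM, with a median of 257 CPM, and the treated mice between 230 and 440 CPM with a median of 311 CPM. All 3 groups overlapped. The log2 fold change was −0.13 (SE 0.13) for PBS against wild type (edgeR, adjusted p = 0.361), and 0.14 (edgeR, adjusted p = 0.397) without wild-type mice 3 and 4. The value for RGLS4326 against PBS was 0.26 (SE 0.10), which was not called (edgeR, adjusted p = 0.0634) but was called by DESeq2 (0.26, adjusted p = 0.0468) and without PBS-treated mouse 7, 8 or 12 or treated mouse 2 (edgeR, adjusted p from 0.0339 to 0.0489). Treated mice were not called against wild type (0.12, SE 0.13; edgeR, adjusted p = 0.408), but without wild-type mice 3 and 4 they were called higher, by 0.40 (edgeR, adjusted p = 0.0267).

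Atp2b1, the plasma membrane calcium pump (chr10:98914406-99026143, plus strand), read 78.7, 73.6, 82.8, 82.7 and 73.9 CPM in wild-type mice 1 to 5. With PBS the range was 48.5 to 71.3 CPM, around a median of 61.1 CPM, all below wild type, and with RGLS4326 it was 51.4 to 76.0 CPM with a median of 65.7 CPM. Atp2b1 fell with a log2 fold change of −0.37 (SE 0.08) with PBS (edgeR, adjusted p = 0.00011), the smallest of the 8 called differences, and this vanished with library totals (−0.01), where the median of all genes was 0.38. RGLS4326 against PBS gave 0.12 (SE 0.06; edgeR, adjusted p = 0.13). Against wild type the treated mice were lower at −0.25 (SE 0.08; edgeR, adjusted p = 0.00603), but not with library totals (0.00) or without wild-type mice 3 and 4 (−0.17; edgeR, adjusted p = 0.13).

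**Figure D2:**
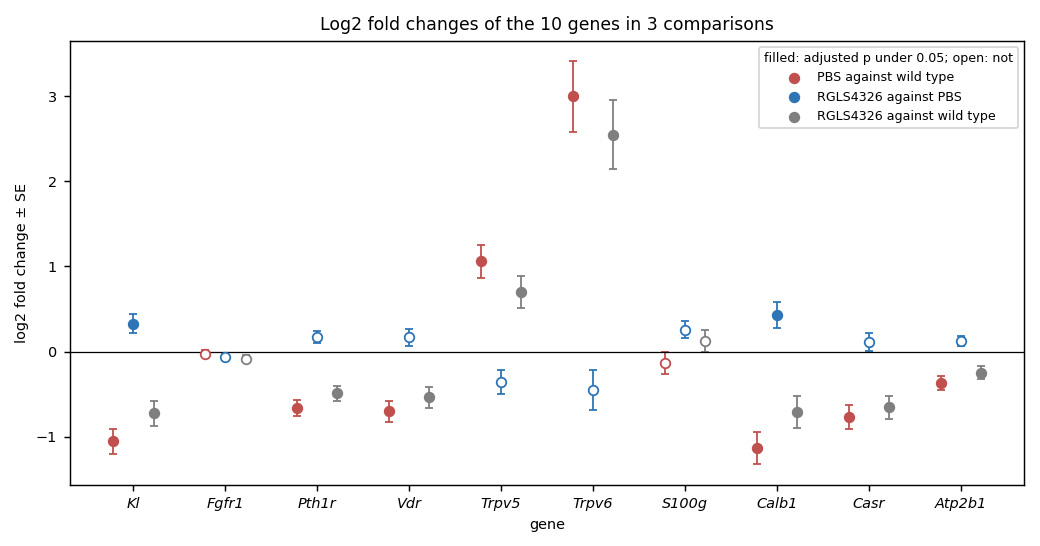
Log2 fold change (y axis) ± SE of the 10 genes (x axis) for PBS against wild type, RGLS4326 against PBS and RGLS4326 against wild type; filled points passed an adjusted p of 0.05. Called Trpv6 and Trpv5 lie above 0 and 6 called genes below 0 in both comparisons with wild type; with library totals as scaling the PBS value of Fgfr1 became 0.35, that of S100g 0.22, and the Atp2b1 value of treated mice against wild type 0.00.

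The length of the transcripts bears on how these levels compare. Per kilobase of exon, the mean in wild type was highest for S100g at 609 CPM per kilobase, followed by Pth1r at 305, Kl at 198, Vdr at 94.5, Calb1 at 68.8, Fgfr1 at 13.1, Casr at 12.97, Atp2b1 at 8.73, Trpv5 at 5.41 and Trpv6 at 0.858. In PBS-treated mice the 6 most abundant genes kept this order, and below them Trpv5 at 11.3 came before Casr at 7.62, Trpv6 at 6.85 and Atp2b1 at 6.76. S100g holds 0.48 kb of exon, the shortest of the 10.

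Vitamin D metabolism was described by 11 genes. Cyp24a1, which degrades active vitamin D and is a classical Vdr target, set wild-type mice 3 and 4 plainly apart. It read 69.5, 45.4, 578, 580 and 51.3 CPM in wild-type mice 1 to 5, 22.1 to 98.0 CPM in PBS-treated mice with a median of 49.3 CPM, and 23.8 to 390 CPM in RGLS4326-treated mice with a median of 45.9 CPM. The highest treated mouse was again mouse 9, and the next read 68.6 CPM. Cyp24a1 was called lower in PBS-treated mice at a log2 fold change of −2.35 (SE 0.54; edgeR, adjusted p = 0.000285), but without wild-type mice 3 and 4 the value was −0.07 (edgeR, adjusted p = 0.915). It was −0.05 and 0.30 in library series 1 and 3, and −3.91 in series 2, which holds both of those mice. The value for RGLS4326 against PBS was 0.45 (SE 0.43; edgeR, adjusted p = 0.459), and −0.17 (edgeR, adjusted p = 0.595) without those 2 wild-type mice and treated mouse 9. A miR-17 seed match was found in 8 of the 66 list genes, Dab2, Spry4 and Pthlh among them, against 11.8% of all genes. That of Cyp24a1, shown because the gene sets the 3 mice apart, lies on chr2:170482801-170482807, minus strand.
Cyp24a1 3′UTR: cgcccatgatcaaGCACTTTtaaccgct
Cyp27b1, which makes active vitamin D, was scarce at 4.10 to 8.30 CPM in wild type, 4.19 to 15.6 CPM with PBS and 5.47 to 21.7 CPM with RGLS4326, and with all mice it was called in none of the 3 comparisons by edgeR (adjusted p = 0.287, 0.332 and 0.0602). RGLS4326 against wild type, 0.61 with all mice, was called without PBS-treated mouse 12 or treated mouse 1, 7 or 9 (edgeR, adjusted p from 0.0397 to 0.0456), without wild-type mice 3 and 4 and treated mouse 9 (0.88; edgeR, adjusted p = 0.0369), by DESeq2 (0.61, adjusted p = 0.039), with a filter at a mean of 1 CPM (0.64; edgeR, adjusted p = 0.0475) and with library totals (0.86; edgeR, adjusted p = 0.00792), which also called PBS against wild type (0.70; edgeR, adjusted p = 0.0261).

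**Figure D3:**
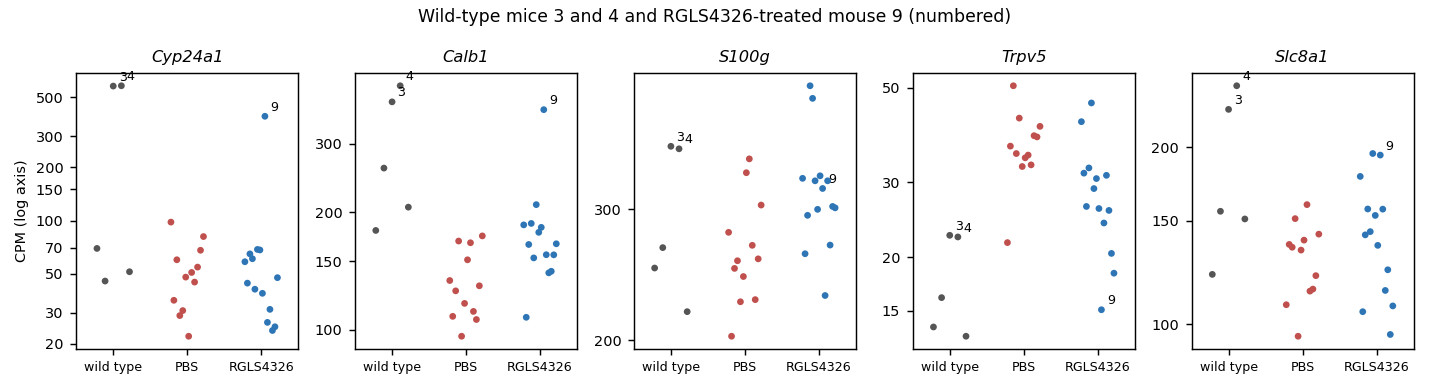
CPM (log axis) of Cyp24a1, Calb1, S100g, Trpv5 and Slc8a1 in each mouse by group, with wild-type mice 3 and 4 and RGLS4326-treated mouse 9 numbered. For Cyp24a1 these 3 mice read 578, 580 and 390 CPM and every other mouse at most 98.0 CPM; for Trpv5 mouse 9 was the lowest treated mouse, at 15.1 CPM.

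Of the 11 vitamin D genes, 1 was higher and 7 were lower with PBS than in wild type, and 3 were higher and 0 lower with RGLS4326 than with PBS. Of all genes, 37.7% were called higher and 36.6% lower in the first of these comparisons and 9.15% and 6.66% in the second, shares that apply to each list below. The 1 gene called higher with PBS, the hydroxylase gene Cyp2r1, had 15 counts over the 5 wild-type mice, 14 of them in 1 mouse, and at most 29 counts in a PBS-treated mouse, so no fold change is given. Lrp2, the gene of the uptake receptor megalin, fell by 1.33 with PBS (SE 0.20; edgeR, adjusted p = 6.5e-07). Cyp2r1 and Lrp2 were named after their values were seen. By smallest p, the list was headed by genes of the proximal tubule that take up vitamin D from the filtrate. Cubn, which codes for the uptake receptor cubilin, averaged 787 ± 57.5 CPM (SD, n = 5) in the wild-type kidney, 364 ± 100.5 CPM (SD, n = 12) under PBS and 473 ± 99.1 CPM (SD, n = 14) under RGLS4326. Its log2 fold change was −1.11 for PBS and then 0.38 for RGLS4326 (edgeR, adjusted p = 6.39e-07 and 0.0421). The RGLS4326 call of Cubn was lost in 13 of 31 single-mouse fits (edgeR, adjusted p from 0.0524 to 0.0859), without PBS-treated mouse 2, 3, 5, 9, 10 or 11 or treated mouse 3, 6, 7, 8, 9, 10 or 13, and without wild-type mice 3 and 4 and treated mouse 9 (0.35; edgeR, adjusted p = 0.0849). Its partner Amn fell by 0.68 with PBS and gave 0.09 with RGLS4326 (edgeR, adjusted p = 5.2e-08 and 0.326). Dab2, the adaptor that internalises these receptors, fell by 0.78 and was higher by 0.25 with RGLS4326 (edgeR, adjusted p = 2.22e-08 and 0.0235), and its RGLS4326 call was lost without PBS-treated mouse 10 (edgeR, adjusted p = 0.0529). All 6 proximal tubule markers were lower with PBS, with a summed level of 6010 to 12100 CPM against 20100 to 22100 CPM in wild type, and 3 of the 6 were higher with RGLS4326 than with PBS, at 8050 to 18300 CPM. Lrp2, Cubn and Slc34a1 are themselves among these 6 markers. How far the uptake genes followed the amount of proximal tubule was not tested.

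Phosphate transport, the process that FGF23 and parathyroid hormone restrain, was described by 9 genes, of which 2 were higher and 6 lower with PBS and 2 higher and 0 lower with RGLS4326. The 2 higher with PBS were Slc34a2, by 2.27, and Slc20a1, by 0.49 (edgeR, adjusted p = 8.45e-07 and 0.00197). Both were named after their values were seen. Slc34a1, the main phosphate carrier of the proximal tubule, averaged 7596 ± 438 CPM (SD, n = 5) in wild-type mice, 3274 ± 917 CPM (SD, n = 12) on PBS and 4170 ± 1102 CPM (SD, n = 14) on RGLS4326. It fell with a log2 fold change of −1.21 (edgeR, adjusted p = 5.68e-07), and RGLS4326 against PBS gave 0.35 (edgeR, adjusted p = 0.071), which was called without PBS-treated mouse 1 or 12 or treated mouse 2 (adjusted p from 0.0379 to 0.0424). Slc34a3, its low-abundance relative, fell by 1.67 and gave 0.36 with RGLS4326 (edgeR, adjusted p = 8.09e-06 and 0.258). The latter was 0.17 (edgeR, adjusted p = 0.574) without treated mouse 9, which read 49.9 CPM against at most 26.2 CPM in the others. Xpr1, which exports phosphate, fell by 1.12 and was higher by 0.32 with RGLS4326 (edgeR, adjusted p = 4.55e-09 and 0.0238). Pdzk1, a scaffold that binds Slc34a1, fell by 1.08 and was higher by 0.32 (edgeR, adjusted p = 1.44e-07 and 0.0468). The RGLS4326 call of Pdzk1 was lost in 18 of 31 single-mouse fits (edgeR, adjusted p from 0.0512 to 0.0959), without PBS-treated mouse 2, 3, 5, 6, 9, 10 or 11, treated mouse 3, 6, 8, 9, 10, 13 or 14 or wild-type mouse 1, 2, 3 or 4, and that of Xpr1 without PBS-treated mouse 5 or 10 (adjusted p of 0.0505 and 0.0541). Neither passed without wild-type mice 3 and 4 and treated mouse 9, at 0.25 for Pdzk1 and 0.27 for Xpr1 (edgeR, adjusted p = 0.104 and 0.0552).

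Signalling around Klotho was described by 15 genes, 12 of them tested, with 2 higher and 7 lower with PBS and 0 higher and 2 lower with RGLS4326. Spry4 and Spry1 code for inhibitors that receptor signalling induces, and they moved apart: Spry4 fell from 14.2 ± 0.933 CPM (SD, n = 5) to 6.997 ± 1.24 CPM (SD, n = 12), a log2 fold change of −1.02, whereas Spry1 rose by 1.03 (edgeR, adjusted p = 2.89e-08 and 3.21e-07). With RGLS4326, Spry1 fell by 0.37 (edgeR, adjusted p = 0.0205) and Spry4 gave 0.19 (edgeR, adjusted p = 0.145). Galnt3, which glycosylates FGF23 and shields it from cleavage, fell by 0.81 with PBS and gave 0.18 with RGLS4326 (edgeR, adjusted p = 6.3e-08 and 0.0945). Among the other FGF receptors, Fgfr2 rose by 0.87 and was lower at −0.38 with RGLS4326 (edgeR, adjusted p = 2.08e-06 and 0.0158), while Fgfr4 fell by 0.21 with PBS (edgeR, adjusted p = 0.00444) but gave 0.15 with library totals.

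Parathyroid hormone signalling was described by 8 genes, 6 of them tested, with 2 higher and 4 lower with PBS and 1 higher and 0 lower with RGLS4326. Arrb2, an arrestin that silences receptors, rose from 13.1 ± 1.40 CPM (SD, n = 5) to 40.2 ± 8.18 CPM (SD, n = 12), a log2 fold change of 1.61 (edgeR, adjusted p = 4.09e-08), and gave −0.12 with RGLS4326 (edgeR, adjusted p = 0.5). The G protein subunits through which Pth1r and Casr signal shifted little: Gnaq fell by 0.35 and Gna11 fell by 0.27 with PBS (edgeR, adjusted p = 0.000428 and 6.28e-06), both of which turned positive with library totals, and Gnas was higher by 0.10 with RGLS4326 (edgeR, adjusted p = 0.0288), which became −0.01 with library totals. This Gnas call was lost without PBS-treated mouse 2, 5, 9 or 10 or treated mouse 8 (edgeR, adjusted p from 0.0502 to 0.0587), and without wild-type mice 3 and 4 and treated mouse 9 (0.09; edgeR, adjusted p = 0.0582). Pthlh, which codes for the parathyroid hormone-related ligand of Pth1r, rose by 1.54 with PBS (edgeR, adjusted p = 0.00348) and gave −0.41 with RGLS4326 (edgeR, adjusted p = 0.257). These values rest on 10 counts over the 5 wild-type mice together and on at most 13 counts in any mouse.

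Distal calcium transport beyond the 10 genes was described by 10 genes, 9 of them tested, with 2 higher and 6 lower with PBS and 2 higher and 1 lower with RGLS4326. Slc8a1, the exchanger that works beside the pump, read 122, 156, 232, 254 and 151 CPM in wild-type mice 1 to 5 and 129 ± 18.8 CPM (SD, n = 12) with PBS. Its call of −0.50 (edgeR, adjusted p = 0.00435) rested on wild-type mice 3 and 4, without which it was −0.12 (edgeR, adjusted p = 0.529). Anxa2 and S100a10 code for partners that bring Trpv5 and Trpv6 to the membrane, and both rose with PBS, Anxa2 by 1.98 and S100a10 by 0.71 (edgeR, adjusted p = 1.24e-08 and 3.85e-05). With RGLS4326, Anxa2 fell by 0.50 (edgeR, adjusted p = 0.0259) and S100a10 gave −0.23 (edgeR, adjusted p = 0.0913). Klk1, a urinary protease known to keep Trpv5 at the membrane, fell by 0.42 with PBS and was higher by 0.30 with RGLS4326 (edgeR, adjusted p = 0.0021 and 0.0288). Rab11a, which recycles both channels, fell by 0.24 and was higher by 0.10 (edgeR, adjusted p = 1.38e-05 and 0.037), and both signs turned with library totals. Klk1 and Rab11a were no longer called with RGLS4326 when wild-type mice 3 and 4 and treated mouse 9 were left out, at 0.26 and 0.10 (edgeR, adjusted p = 0.0607 and 0.0764), and the PBS call of Klk1 was lost without wild-type mice 3 and 4 (−0.32; edgeR, adjusted p = 0.0529). Single mice also ended RGLS4326 calls: that of Anxa2 without PBS-treated mouse 3, 5, 9 or 10 (adjusted p from 0.0523 to 0.0588), that of Klk1 without PBS-treated mouse 2, 5, 9 or 10 or treated mouse 8 or 9 (0.0502 to 0.0631), and that of Rab11a without PBS-treated mouse 2, 3, 5, 9, 10 or 11 or treated mouse 6, 8, 9, 10 or 13 (0.0521 to 0.0748).

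Calcium and magnesium handling in the thick limb and distal tubule was described by 13 genes, with 2 higher and 7 lower with PBS and 4 higher and 1 lower with RGLS4326. Cldn19, a tight junction protein through which calcium and magnesium pass, rose from 52.1 ± 3.27 CPM (SD, n = 5) to 97.5 ± 14.5 CPM (SD, n = 12), a log2 fold change of 0.90, and was lower at −0.28 with RGLS4326 (edgeR, adjusted p = 2.55e-08 and 0.0205). The magnesium-permeable channel Trpm7 fell by 0.99 and was higher by 0.33 with RGLS4326 (edgeR, adjusted p = 1.18e-07 and 0.0307). Cnnm2, a magnesium transporter of the basolateral side, fell by 0.66 and was higher by 0.21 (edgeR, adjusted p = 1.31e-07 and 0.0324). Pcbd1, an enzyme of tetrahydrobiopterin recycling, fell by 0.76 and was higher by 0.27 (edgeR, adjusted p = 1.68e-07 and 0.0271). Without wild-type mice 3 and 4 and treated mouse 9 the RGLS4326 calls of Trpm7, Cnnm2 and Pcbd1 were lost, at 0.29, 0.17 and 0.23 (edgeR, adjusted p = 0.0698, 0.0554 and 0.061). They were also lost without any of PBS-treated mice 3, 5, 9 and 10 (adjusted p up to 0.0705), as were those of Cnnm2 and Pcbd1 without PBS-treated mouse 2, those of Trpm7 and Cnnm2 without treated mouse 6, 8 or 9, and that of Cnnm2 without treated mouse 10.

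Over the 6 lists together, 60 of 66 genes were tested. In PBS-treated mice 11 were higher and 37 lower than in wild type, where 37.7% and 36.6% of all genes were, with a median log2 fold change of −0.28 against 0.01 for all genes. With RGLS4326, 12 were higher and 4 lower than with PBS, where 9.15% and 6.66% of all genes were, with a median of 0.10 against −0.00, and against wild type 10 were higher and 32 lower, where 32.5% and 32.4% of all genes were, with a median of −0.21 against 0.00. Without wild-type mice 3 and 4 and treated mouse 9, 5 list genes in place of 16 were called for RGLS4326 against PBS, namely Spry1, Fgfr2, Dab2, Anxa2 and Cldn19, where 5.91% of all genes were called in either direction. Single mice moved the count as far: it was 3 without PBS-treated mouse 10, where 4.08% of all genes were called, 5 without PBS-treated mouse 5 or 9 (5.21% and 5.55% of all genes), 7 without PBS-treated mouse 2 or 3 (7.47% and 6.07%) or treated mouse 8 (6.76%), and 8, 9 and 10 without treated mouse 9, 6 and 10 (8.14%, 8.22% and 8.24%).

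To set the genes beside the tubule they come from, each was divided by a transporter of a segment where it is expressed: Kl, Trpv5, Trpv6, S100g, Calb1 and Atp2b1 by Slc12a3, the thiazide-sensitive carrier of the distal convoluted tubule, Casr by Slc12a1, the furosemide-sensitive carrier of the thick ascending limb, and Pth1r by Slc34a1. Slc12a3 itself fell from 1011 ± 175 CPM (SD, n = 5) to 630 ± 86.2 CPM (SD, n = 12) under PBS and read 745 ± 132 CPM (SD, n = 14) under RGLS4326, and Slc12a1 fell from 1252 ± 61.7 CPM to 868 ± 196 CPM and read 997 ± 224 CPM. Trpv5, Trpv6, S100g and Calb1 are also expressed in the connecting tubule, for which no single transporter was used. The ratios were compared on log2(CPM + 1) values by permuting mice, two-sided, with p adjusted over the 24 ratios. Neither Vdr nor Fgfr1, which are expressed in several segments, was set against a marker. The genes that were may also be expressed outside the segment of their marker. A ratio holds for its own marker, since markers of a segment differed from each other. Of the 4 thick ascending limb markers, Slc12a1 was called lower with PBS at −0.53, Cldn16 was called higher by 0.39, and Umod and Kcnj1 gave −0.16 and 0.15 (edgeR, adjusted p = 0.00261, 0.0146, 0.0595 and 0.0653). Of the 3 distal convoluted tubule markers, Slc12a3 gave −0.68, Pvalb −3.83 and Trpm6 −0.14 (edgeR, adjusted p = 6.64e-06, 1.07e-07 and 0.384).

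Relative to Slc12a3, Kl was lower with PBS than in wild type, at −0.42 (exact permutation test, adjusted p = 0.00259), Trpv5 was higher by 1.70 and Trpv6 by 3.17 (exact permutation tests, adjusted p = 0.0013 each). S100g, whose level alone was not called, was higher relative to Slc12a3 by 0.55 (exact permutation test, adjusted p = 0.0013). Calb1 was lower at −0.40 and Atp2b1 higher by 0.30 (exact permutation tests, adjusted p = 0.0125 and 0.0097), but without wild-type mice 3 and 4 these were −0.17 and 0.22 and did not pass (exact permutation tests, adjusted p = 0.223 and 0.0984), and the Calb1 ratio did not pass without wild-type mouse 4 alone (exact permutation test, adjusted p = 0.0508). Pth1r was higher relative to Slc34a1 by 0.59 (exact permutation test, adjusted p = 0.00165), so the carrier fell further than the receptor. Casr relative to Slc12a1, the 1 thick ascending limb marker called lower, gave −0.19 (exact permutation test, adjusted p = 0.141), and its ratio to the other 3 was not computed.

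With RGLS4326 and all mice, 1 ratio differed from PBS: Trpv5 relative to Slc12a3 was lower at −0.61 (permutation test, adjusted p = 0.00305), at −4.70 ± 0.51 (SD, n = 14) against −4.08 ± 0.37 (SD, n = 12). It was −0.51 without treated mouse 9 (permutation test, adjusted p = 0.00587, with wild-type mice 3 and 4 also left out). Kl and Calb1, the 2 genes called higher by level, gave 0.11 and 0.16 relative to Slc12a3 (permutation tests, adjusted p = 0.164 and 0.0587). Trpv6 gave −0.72 (permutation test, adjusted p = 0.0601), and S100g 0.02 (permutation test, adjusted p = 0.833). The call of other ratios changed with single mice. The Trpv6 ratio passed without PBS-treated mouse 4, 8 or 12 or treated mouse 2 or 11 (permutation tests, adjusted p from 0.0333 to 0.0496), and the Calb1 ratio without PBS-treated mouse 7, 8 or 12 or treated mouse 2, 5 or 12 (permutation tests, adjusted p from 0.0163 to 0.0496). The ratios of Pth1r, −0.18 with all mice, and Atp2b1, −0.11, passed without PBS-treated mouse 12 (permutation tests, adjusted p = 0.0406 each), and that of Pth1r also without treated mouse 2 (permutation test, adjusted p = 0.0486).

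**Figure D4:**
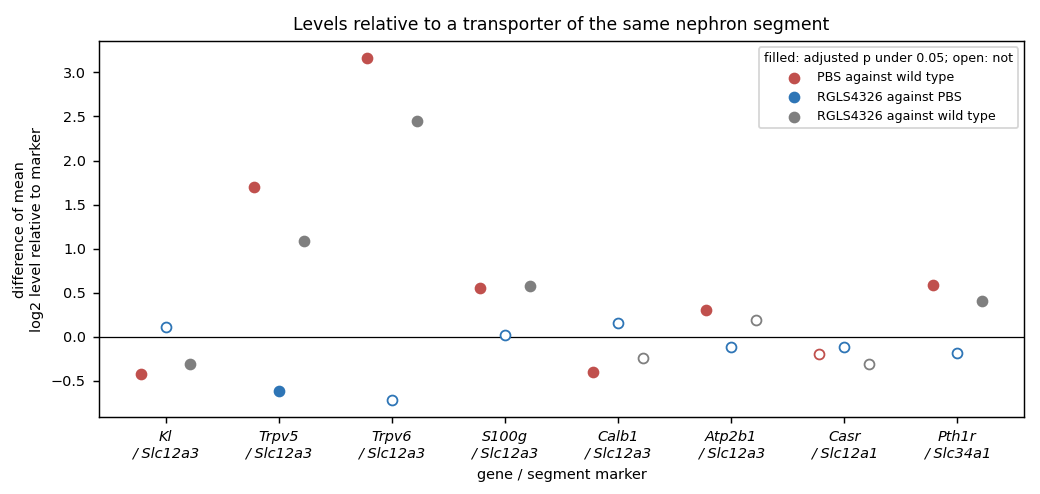
Difference between group means of the log2 level of 8 genes relative to a transporter of a segment that expresses them (y axis). Values are given by gene and transporter (x axis) for the 3 comparisons. Filled points passed an adjusted p of 0.05 in a permutation test. Trpv5 relative to Slc12a3 is 1.70 higher with PBS than in wild type and, alone among the 8 with all mice, passes between RGLS4326 and PBS, at −0.61.

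The Pcy/CD1 mice of 1 group differed widely in Lcn2, the transcript of the injury marker Ngal, from 205 to 1205 CPM with PBS and from 2.76 to 607 CPM with RGLS4326, and the 10 genes were compared with it within each group. Of the PBS-treated mice, those with most Lcn2 had least Vdr (r = −0.95, rho = −0.96, adjusted permutation p = 6.67e-05 and 0.0001) and Kl (r = −0.92, rho = −0.88, adjusted permutation p = 0.0002 and 0.00155), and most Trpv6 (r = 0.97, rho = 0.98, adjusted permutation p = 6.67e-05 and 0.0001). All relations were on log2(CPM + 1) over 12 mice, and p was adjusted over the 20 relations computed; 1e-05 is the smallest p that the permutations can give. Without mice 5 and 10, the farthest from the median of Lcn2, r was −0.92, −0.87 and 0.96. Many genes followed Lcn2 in these kidneys: 34.9% of all genes had an absolute r of at least 0.70 with PBS and 28.2% with RGLS4326. At least as strong a relation as that of Trpv6 was held by 0.237% of genes, as that of Vdr by 1.61% and as that of Kl by 3.75%.

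Among the other genes in PBS-treated mice, r was −0.79 for Casr, −0.78 for Atp2b1, −0.75 for Calb1 and −0.73 for Pth1r, and each passed (adjusted permutation p = 0.00598, 0.00598, 0.0106 and 0.014). As many as 22.7% to 31.1% of all genes were related to Lcn2 as strongly as these. Trpv5 gave 0.58, S100g −0.49 and Fgfr1 0.18, which did not pass (adjusted permutation p = 0.0571, 0.122 and 0.6). In RGLS4326-treated mice (n = 14) Trpv6 again stood out with r = 0.94 (rho = 0.93, adjusted permutation p = 6.67e-05 and 0.0002), and with 0.96 without mice 9 and 13. There Pth1r gave −0.84, Vdr −0.79, Kl −0.78 and Trpv5 0.74 (adjusted permutation p = 0.00117, 0.00044, 0.000633 and 0.00128), and −0.64, −0.88, −0.79 and 0.58 without those mice. Calb1 gave −0.82 (adjusted permutation p = 0.0134), but −0.45 without mice 9 and 13 and a rho of −0.48. Leaving out 1 mouse alone took r as far as −0.355 and ended the call (adjusted permutation p = 0.285), so this relation rested on 1 mouse. Fgfr1 (r = −0.52), Atp2b1 (r = −0.48), Casr (r = −0.44) and S100g (r = 0.12) did not pass in the treated mice (adjusted permutation p = 0.0871, 0.103, 0.122 and 0.6), although rho of Atp2b1, −0.59, did (adjusted permutation p = 0.0446). The difference between the groups in these relations was not tested.

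**Figure D5:**
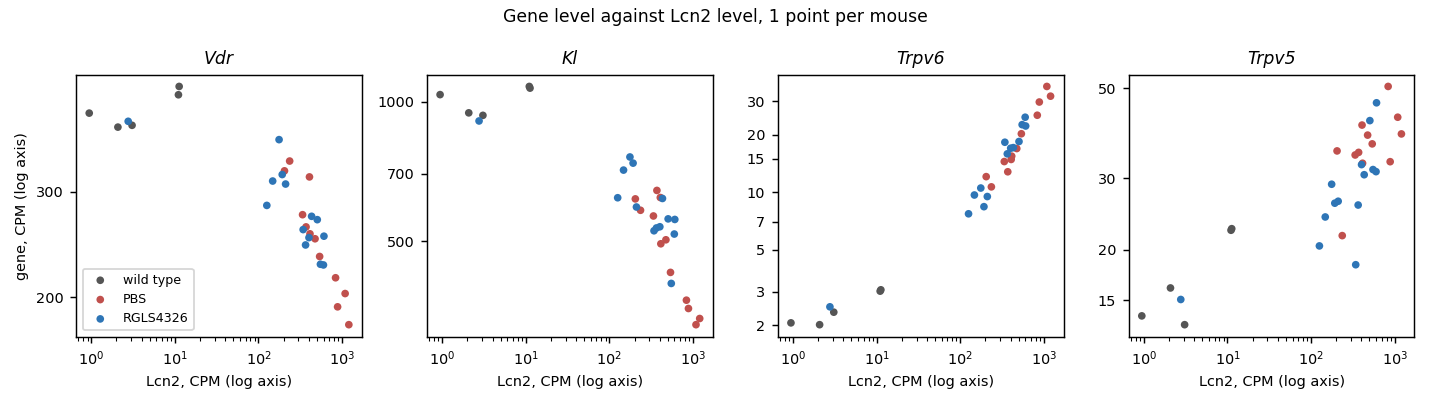
CPM of Vdr, Kl, Trpv6 and Trpv5 (y axes, log) against CPM of Lcn2 (x axis, log), 1 point per mouse by group. Within the PBS group, mice with more Lcn2 had less Vdr and Kl and more Trpv6 (r = −0.95, −0.92 and 0.97), and treated mouse 9, at 2.76 CPM of Lcn2, lies within the wild-type range for Vdr, Trpv6 and Trpv5 and just below it for Kl, at 910 CPM against 936 CPM.

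Over the 26 Pcy/CD1 mice, with group means removed, the genes whose level followed Kl most closely out of 11567 genes averaging 5 CPM or more were Slc30a5, Mut and Ghitm, each with r = 0.97 with or without treated mouse 9. For Trpv5 they were Hpcal4, Iqgap1 and Aif1l, with r = 0.84, 0.84 and 0.83, and without treated mouse 9 r was 0.80, 0.81 and 0.78 and the genes ranked 3, 2 and 5, so which genes lay nearest depended on this mouse. These are descriptions over mice that also share depth, cell composition and degree of disease.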

How the data were processed

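Kidney poly(A) RNA of 31 mice was sequenced by the authors from stranded mRNA libraries. They trimmed reads with Trim Galore, mapped them to GRCm38 with STAR and counted uniquely mapped reads per gene with HTSeq 0.6.1; the strand setting and annotation are not given in the sources used here. Each deposited file holds unnormalized read counts of 1 mouse over 23509 genes, as the authors made them; rows that name no gene were left out, 26.9% to 31.1% of all counted entries with alignments that were not unique and 10.8% to 12.9% without them.

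Groups and replicate numbers came from the labels. Genes passing filterByExpr defaults (15185) were fitted in edgeR 4.0.16 (R 4.3.3; TMM; quasi-likelihood test) with 1 coefficient per group over all 31 mice. The SE is approximate, taken as the size of the log2 fold change over the root of its F statistic. Ratios and relations used a pseudocount of 1 CPM and 100000 permutations, or all 6188 of 12 against 5 mice. Exon lengths and 3′UTRs came from the GENCODE annotation of GRCm38. In a simulation of RGLS4326 against PBS with 15103 genes tested, 79 of 100 genes changed by 0.5 (log2), 95 of 100 changed by 1 and 12 of 14903 unchanged genes were called. Each gene was drawn independently there. Differences between mice that many genes share were not simulated, so these figures do not cover them.

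The 10 genes, the 6 lists and the tests were chosen with earlier results of these data known, so they are not independent support for any pattern. Named are the 10 genes, Fgf23, Fgfr4, Cyp27b1, Cyp24a1, Pth, Slc34a1, Slc34a3, Slc8a1, Slc12a3, Slc12a1, and in each list the 3 genes with the smallest p for PBS against wild type and the 2 for RGLS4326 against PBS, plus the 3 nearest to Kl and to Trpv5. Alternatives covered scaling, filter, DESeq2 1.42.0, groups fitted, library series, replicate block, a fold threshold, pseudocounts and leaving out each mouse; leaving out wild-type mice 3 and 4 and treated mouse 9 was chosen after seeing the data. Python 3.11.15, numpy 2.4.6, pandas 2.3.3, scipy 1.17.1 and matplotlib 3.10.9 served for the rest. The 13 marker lists were checked in every group. Podocyte, intercalated cell, endothelium, thick ascending limb, adrenal cortex and adipose lists had at most 1 member called higher and 1 lower in any comparison. Summed adipose markers were uneven between mice, at 0 to 3.13 CPM in wild type, 0 to 40.5 CPM with PBS and 0.0391 to 34.9 CPM with RGLS4326. Fibroblast, macrophage and injured tubule markers were 4 of 4 higher with PBS than in wild type, and 2 of 3 distal convoluted tubule markers were lower.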

Additional observations from a re-analysis of the deposited data

Results flagged for a closer look

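Among the 48 gene levels and ratios to a segment marker checked in the 5 wild-type mice, 3 had a mouse far from the others by Dixon's criterion. Chance gives about 1 in 20. Amn read 215 CPM in wild-type mouse 1 against 160 to 176 CPM in the other 4 mice. Gnas read 736 CPM in the same mouse against 664 to 680 CPM. Pdzk1 read 1510 CPM in wild-type mouse 5 against 1810 to 1860 CPM. Without mouse 1 or mouse 5 the PBS calls of Amn, Gnas and Pdzk1 were kept.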

How the results depend on the processing

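Over the alternatives other than single mice, 348 of 420 values of the 10 genes kept their direction and their side of the threshold, 47 lost the call, 9 gained it and 16 changed sign; with each mouse left out in turn, these were 880, 36, 13 and 1 of 930. The PBS calls of the 10 genes were kept whichever single mouse was left out. For the other named genes the figures were 1000, 202, 11 and 35 of 1248, and 2657, 96, 20 and 2 of 2775. The cause of these changes was not tested, except that a single library series holds fewer mice and library totals shift all genes. With at most 2 counts per mouse, no difference in Fgf23 or Pth was detectable at this depth.

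The 2 genes called higher with RGLS4326 than with PBS became 1 when only these groups were fitted, with library series as a covariate and without wild-type mice 3 and 4, and 0 with library totals, with no filter, in library series 1, 2 and 3 alone, with an absolute log2 fold change over 0.5 also required, and without wild-type mice 3 and 4 and treated mouse 9. The genes called lower numbered 2 with library totals. Leaving out single mice gave 0 to 4 called higher and 0 to 1 called lower. Of the 16 other genes of the axis called, 0 were called in series 1, 2 and 3 alone, 1 with the fold threshold and 5 without wild-type mice 3 and 4 and treated mouse 9; leaving out single mice gave 3, without PBS-treated mouse 10, to 21, without treated mouse 2. For PBS against wild type, 1 of the 10 genes was called higher in series 2 alone and 3 lower in series 3 alone, and 26 and 31 other genes of the axis, in place of 48, were called in series 3 alone and with the fold threshold. For RGLS4326 against wild type, 4 of the 10 genes were called higher with library totals and 0 in series 2 alone, 0 were called lower in series 2 alone and in series 3 alone, and the other genes called numbered 0 in series 2, 11 in series 3 and 21 with the fold threshold, in place of 42. The shares of all genes called are not given here for the single-series, fold-threshold, no-filter and series-covariate fits, or for only the compared groups. Counts from those fits therefore do not show a change particular to the axis. Ratios to a segment marker called for RGLS4326 against PBS numbered 1 to 5 when single mice were left out, 5 without PBS-treated mouse 12.

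With replicate numbers as a block, the genes called for RGLS4326 against PBS fell to 0 of the 10 higher and 0 of the other genes. The share of all genes called in that fit is not given here, so the loss cannot be called particular to these genes. The numbers do not mark shared animals: same-numbered PBS- and RGLS4326-treated mice had a mean correlation of −0.0849 in their deviations from the group means, and 4 of 12 pairs exceeded 0.1.

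Values of log2 fold change that changed sign follow. With library totals and PBS against wild type these were Fgfr1 0.35, S100g 0.22, Fgfr4 0.15, Gna11 0.10, Gnaq 0.018, Gnas 0.24 and Rab11a 0.12; with RGLS4326 against PBS, Casr −9.91e-05, Fgfr4 −0.065, Amn −0.025, Gna11 −0.072, Gnaq −0.034, Gnas −0.014 and Rab11a −0.0062; with RGLS4326 against wild type, Fgfr1 0.17, Atp2b1 0.0037, Fgfr4 0.086, Gna11 0.030, Gnas 0.22, Rab11a 0.11 and Klk1 0.13. With a mean of at least 1 CPM required, Fgfr1 was 0.014 for PBS against wild type and Gnas 0.0014 for RGLS4326 against wild type, and with only the groups compared Fgfr1 was 0.00028 for PBS against wild type. In series 1 alone RGLS4326 against PBS gave Pth1r −0.022, Vdr −0.073, Fgfr4 −0.13, Spry4 −0.15, Amn −0.0049, Arrb2 0.13 and Gnaq −0.022, and against wild type Slc8a1 0.071. In series 2 alone Fgfr1 was 0.079 for PBS against wild type, Cyp27b1 −0.14 for RGLS4326 against PBS, and Fgfr1 0.041, S100g −0.078, Cyp27b1 −0.0735 and Gnas 0.0030 for RGLS4326 against wild type. In series 3 alone S100g was 0.29 and Cyp24a1 0.30 for PBS against wild type, Casr −0.18, Cyp24a1 −1.01, Slc34a3 −0.019 and Slc8a1 −0.040 for RGLS4326 against PBS, and Fgfr4 0.080 and Gnas 0.059 for RGLS4326 against wild type. Without wild-type mice 3 and 4 S100g was 0.14 for PBS against wild type (0.14 also without treated mouse 9), and Cyp24a1 0.37 and Slc8a1 0.022 for RGLS4326 against wild type; without treated mouse 9 as well Cyp24a1 was −0.17 for RGLS4326 against PBS.

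Leaving out single mice, sign changes were limited to 6 values among those named: Fgfr1 for PBS against wild type (−0.052 to 0.010), Cyp24a1 for RGLS4326 against PBS (−0.17, without treated mouse 9, to 0.57), Gnas for RGLS4326 against wild type (−0.039 to 0.00089), S100g relative to Slc12a3 for RGLS4326 against PBS (−0.014 to 0.061), and the correlation of Fgfr1 with Lcn2 in PBS-treated mice (r from −0.0099 to 0.37) and in RGLS4326-treated mice (r from −0.61 to 0.017, the latter without mouse 9).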
